A study of Mus musculus with 6 samples.

Results

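The VEGF and angiopoietin ligands and receptors are 10 genes, 5 that encode secreted ligands (*Vegfa*, *Vegfb*, *Vegfc*, *Angpt1* and *Angpt2*) and 5 that encode receptors (*Kdr*, *Flt1*, *Flt4*, *Tek* and *Tie1*). They were taken by symbol from a table of 20066 genes, and all 10 were listed. RNA came from cardiomyocytes of C57BL/6 mice aged P0-1, which had been kept in culture for 96 h either with the solvent dimethylsulfoxide (DMSO) or with a cell-permeable form of α-ketoglutarate (αKG), a Krebs cycle intermediate, for which the labels give 100 µM. Each group held 3 libraries, numbered 1 to 3. No allele or transgene was labelled in either group, the same isolation and culture procedure is described for both groups, and the study's methods described no step in this culture that removes non-cardiomyocytes. Per those methods a neonatal sample is 1 isolation from pooled hearts, while the labels do not say which libraries share an isolation, so p-values measure the spread between these samples.

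VEGF ligands bind receptor tyrosine kinases that lie mainly on endothelial cells, the cells that line blood and lymph vessels. KDR (VEGFR2) passes on most of the growth and permeability signal of VEGFA, FLT1 (VEGFR1) binds VEGFA and VEGFB tightly but signals weakly and also exists as a soluble decoy, and FLT4 (VEGFR3) is the receptor of VEGFC in lymphatic and sprouting vessels. Angiopoietin-1, released by cells around vessels, activates TEK (TIE2) and keeps vessels quiet, whereas angiopoietin-2, made and stored by endothelial cells themselves, can oppose it, and TIE1 is a co-receptor that binds no angiopoietin on its own. In the heart, cardiomyocytes are a main source of VEGFA and VEGFB for the endothelial cells beside them, which is why ligands were set against receptors in each αKG library.

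In the αKG group the receptor genes *Kdr*, *Flt4* and *Tie1* and the ligand gene *Angpt2* were lower than in the DMSO group, by 2.20-fold, 1.59-fold, 1.80-fold and 2.80-fold. The receptor genes *Flt1* and *Tek* and the ligand gene *Vegfa* did not pass the test, and each was higher than every DMSO library in αKG replicates 1 and 2 but lower than every DMSO library in αKG replicate 3. *Vegfc* and *Angpt1* were low in all libraries and overlapped between the groups. At a Benjamini-Hochberg adjusted p under 0.05 in limma, which was fitted over all genes on log2(value + 1), 4 of the 10 genes were called, all 4 lower and 0 higher, whereas 3.78% of all genes were called in either direction, 0.952% lower and 2.83% higher. At an unadjusted p under 0.05, 5 of the 10 were lower and 1 was higher, beside 12.4% and 15.7% of all genes. These calls were lost when any library but αKG replicate 3 was left out, as given beside the values.

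The upstream sequences of a pair of VEGF receptor genes and a pair of angiopoietin receptor genes are shown because within each pair one gene was called lower and the other was not. Each line gives the 250 bases before the RefSeq transcription start (GRCm38.p6), 5′ to 3′ on the strand of the gene, and capitals mark the letters CGGAAG or AGGAAG on either strand, a core that factors of the ETS family can bind and that is common in endothelial promoters. The windows are *Kdr* at chr5:75978456-75978705 on the minus strand, *Flt1* at chr5:147726012-147726261 on the minus strand, *Tie1* at chr4:118489850-118490099 on the minus strand, which lies mostly inside the gene span of the deposited table, and *Tek* at chr4:94739039-94739288 on the plus strand.
Kdr: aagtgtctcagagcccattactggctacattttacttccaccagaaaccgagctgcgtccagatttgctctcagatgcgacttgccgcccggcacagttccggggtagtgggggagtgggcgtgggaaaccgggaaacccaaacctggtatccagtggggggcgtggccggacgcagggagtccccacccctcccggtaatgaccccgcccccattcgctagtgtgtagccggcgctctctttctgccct
Flt1: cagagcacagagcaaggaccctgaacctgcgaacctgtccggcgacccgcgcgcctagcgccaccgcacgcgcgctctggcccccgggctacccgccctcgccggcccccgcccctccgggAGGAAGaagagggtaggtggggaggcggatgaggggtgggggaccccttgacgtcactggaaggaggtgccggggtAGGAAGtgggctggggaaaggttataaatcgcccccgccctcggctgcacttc
Tie1: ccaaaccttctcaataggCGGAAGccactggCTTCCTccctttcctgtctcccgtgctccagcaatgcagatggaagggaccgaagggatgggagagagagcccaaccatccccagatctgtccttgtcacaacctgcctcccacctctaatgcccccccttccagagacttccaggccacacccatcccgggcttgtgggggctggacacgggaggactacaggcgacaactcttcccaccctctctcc
Tek: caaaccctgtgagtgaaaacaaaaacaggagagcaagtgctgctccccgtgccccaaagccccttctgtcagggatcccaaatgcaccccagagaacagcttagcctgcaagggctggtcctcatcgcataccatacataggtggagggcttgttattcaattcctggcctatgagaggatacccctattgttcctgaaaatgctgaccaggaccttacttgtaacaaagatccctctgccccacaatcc

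The ETS letters stood 2 times in the *Flt1* window, beginning 129 and 53 bases before the start, and 2 times in the *Tie1* window, beginning 232 and 219 bases before it. They were not found in the *Kdr* and *Tek* windows, and 39.2% of 32851 promoters of the same length held them. The GC box letters GGGCGG, again on either strand, occurred 2 times for *Kdr*, 3 times for *Flt1* and 0 times for *Tek* and *Tie1*, against 32.7% of promoters with at least 1. The hypoxia-response core ACGTG was found in none of these 4 windows and in 16.6% of promoters. Such matches describe letters only, and they did not sort the genes by direction, because *Tie1* was called lower with ETS letters and *Kdr* was called lower without them. Promoter entries were matched for 8 of the 10 genes, and *Angpt1* and *Angpt2* had none.

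The libraries were first checked as a whole. From the spacing of low values, an estimated 3725428 to 4429134 reads lay in genes per library. Across 20066 genes, αKG replicate 3 correlated at 0.977 to 0.98 with the DMSO libraries and at 0.962 to 0.963 with αKG replicates 1 and 2, so that it stood closer to the control group, and counts without it are given beside those of the members and lists below. *Tnnt2* and *Myh6*, which define cardiomyocytes, had values of 2812 to 3681 and 4910 to 5839 over the 6 libraries, and 19 of 19 cardiomyocyte genes were listed, with median log2 differences from the DMSO mean of 0.11, 0.12 and 0.01 in αKG replicates 1 to 3. Their summed value, 89909 to 92502 in DMSO and 124663, 128045 and 95160 in αKG, was mostly that of *Ttn*, the gene of the giant protein titin (51569, 54216 and 53157 against 80306, 84136 and 55569). Of the other cells that a dissociated newborn heart can hold, endothelial markers were plain in every library, and macrophage markers were near 0 (5 of 12 listed, summed values 23 to 41).

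*Kdr* (ENSMUSG00000062960, chr5:75932827-75978458, GRCm38) had normalized read counts of 393, 364 and 371 in DMSO replicates 1 to 3 and of 153, 128 and 253 in αKG replicates 1 to 3. All αKG libraries lay below all DMSO libraries, and αKG replicate 3 was the closest to them. The log2 fold change of αKG over DMSO was -1.14 ± 0.21 (SE, n = 3 per group, limma adjusted p = 0.0293). Without αKG replicate 3 it was -1.42 (adjusted p = 0.000433), and without any other single library the adjusted p lay between 0.138 and 0.255. In a bulk sample, fewer cells of a type and less RNA per cell cannot be told apart, and this holds for every endothelial gene here.

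*Flt1* (ENSMUSG00000029648, chr5:147561604-147726011) had values of 485, 510 and 499 in DMSO and 733, 719 and 411 in αKG. αKG replicates 1 and 2 were the highest of the 6 libraries and αKG replicate 3 was the lowest, so the groups overlapped. Its log2 fold change was 0.27 ± 0.19 (limma adjusted p = 0.365), with a 95% interval from -0.15 to 0.69. Without αKG replicate 3 it was 0.54 (adjusted p = 0.000816). Without any other single library the limma adjusted p lay between 0.526 and 0.786. The values are sums over the gene, so the soluble and the membrane form of FLT1 were not separated.

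*Flt4* (ENSMUSG00000020357, chr11:49609263-49652739) had values of 119, 111 and 126 in DMSO and 78, 67 and 78 in αKG. The 3 αKG libraries were alike and all lay below DMSO, with replicate 3 at the same value as replicate 1. The log2 fold change was -0.67 ± 0.14 (limma adjusted p = 0.0389), and -0.71 without αKG replicate 3 (adjusted p = 0.00535). The fold change of *Flt4* thus hardly rested on replicate 3, although its call was lost, with adjusted p between 0.15 and 0.255, when any of the other libraries was left out.

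*Tek* (ENSMUSG00000006386, chr4:94739289-94874976) had values of 65, 71 and 58 in DMSO and 115, 96 and 54 in αKG. As for *Flt1*, αKG replicates 1 and 2 exceeded every DMSO library and αKG replicate 3 was the lowest of all. The log2 fold change was 0.38 ± 0.26 (limma adjusted p = 0.351), and 0.70 without αKG replicate 3 (adjusted p = 0.0109). Without any other single library the limma adjusted p of *Tek* was 0.459 to 0.761. *Tie1* (ENSMUSG00000033191, chr4:118471191-118490061) had values of 71, 96 and 90 in DMSO and 53, 40 and 48 in αKG. All 3 αKG libraries were below DMSO. Its log2 fold change was -0.85 ± 0.19 (limma adjusted p = 0.0445), it was -0.87 without αKG replicate 3 (adjusted p = 0.0141), and without any other single library the adjusted p was 0.1 to 0.255. The 2 angiopoietin receptors, which form complexes with each other, therefore showed opposite signs in αKG replicates 1 and 2 and the same sign in replicate 3.

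**Figure D1:**
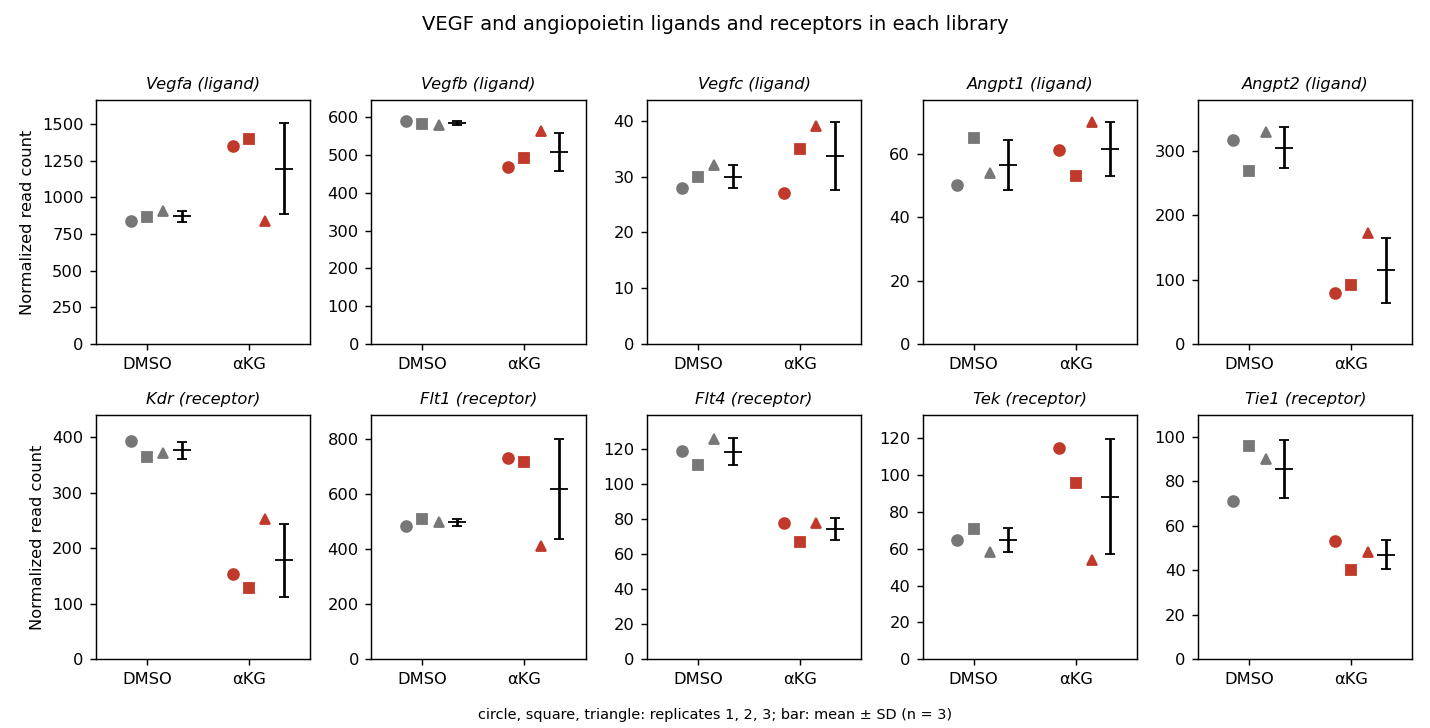
Normalized read counts (vertical axes, each starting at 0) of the 5 ligand genes (upper row) and 5 receptor genes (lower row) in DMSO and αKG libraries, with circle, square and triangle for replicates 1, 2 and 3 and a bar for the mean ± SD (n = 3). For *Kdr*, *Flt4*, *Tie1* and *Angpt2* all αKG points lie below all DMSO points, whereas the triangle of αKG for *Vegfa*, *Flt1* and *Tek* lies apart from the other αKG points and below DMSO.

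Among the ligands, *Angpt2* (ENSMUSG00000031465, chr8:18690263-18741562) had values of 316, 269 and 329 in DMSO and 80, 91 and 172 in αKG. Every αKG library lay below every DMSO library, and replicate 3 was again the nearest to DMSO. The log2 fold change was -1.48 ± 0.25 (limma adjusted p = 0.0223), and -1.82 without αKG replicate 3 (adjusted p = 0.000382). Without any other single library the adjusted p was 0.108 to 0.255. *Angpt2* lies inside the span of *Mcph1*, a gene for a DNA damage and chromosome condensation protein on the opposite strand, with 0 shared exon bases. *Mcph1* had values of 223, 204 and 185 in DMSO and 243, 246 and 249 in αKG, and was thus higher than DMSO in each αKG library, opposite to *Angpt2*.

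*Vegfa* (ENSMUSG00000023951, chr17:46016993-46032369) had values of 840, 863 and 910 in DMSO and 1350, 1396 and 838 in αKG. αKG replicates 1 and 2 were the highest libraries, and αKG replicate 3, at 838, was just below the lowest DMSO library. The log2 fold change was 0.42 ± 0.16 (limma adjusted p = 0.137), and 0.66 without αKG replicate 3 (adjusted p = 0.000557). Without any other single library the limma adjusted p of *Vegfa* was 0.333 to 0.472. *Vegfb* (ENSMUSG00000024962, chr19:6982473-6987651) encodes a ligand that, of the receptors in this set, binds FLT1 alone. Its values were 590, 581 and 580 in DMSO and 468, 492 and 563 in αKG. The groups did not overlap, but replicate 3 lay within a few per cent of DMSO. The log2 fold change of *Vegfb* was -0.21 ± 0.08 (limma adjusted p = 0.15), and -0.28 without αKG replicate 3 (adjusted p = 0.00574). Without any other single library its limma adjusted p was 0.322 to 0.361.

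*Vegfc* (ENSMUSG00000031520, chr8:54077606-54187096) had values of 28, 30 and 32 in DMSO and 27, 35 and 39 in αKG. *Angpt1* (ENSMUSG00000022309, chr15:42424723-42676977) had values of 50, 65 and 54 in DMSO and 61, 53 and 70 in αKG. Both genes overlapped between the groups and were the only members that were highest in αKG replicate 3. Their log2 fold changes were 0.15 (95% interval -0.37 to 0.67, limma adjusted p = 0.699) and 0.12 (-0.30 to 0.54, adjusted p = 0.698), so changes within these limits are not excluded. Both signs turned under another scaling (quantile normalization, -0.18 and -0.04). The antisense gene *Gm17473*, which shares 737 exon bases with *Angpt1*, was not in the table.

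Of the 10 genes, 5 did not overlap between the groups, and all 5 (*Kdr*, *Flt4*, *Tie1*, *Angpt2* and *Vegfb*) were lower in αKG, where 14.6% of all genes were lower without overlap and 13.7% higher. In the fit without αKG replicate 3, 8 of 10 were called, 5 lower and 3 higher, but 37.2% of all genes were called in that fit, 17.9% lower and 19.3% higher. Without any single one of the other 5 libraries, limma called 0 of the 10 genes. In each such fit 4 of the 10 genes had an unadjusted p under 0.05. Over the whole table of 20066 genes these fits called between 0 and 152, with 3219 to 3796 at an unadjusted p under 0.05. The direction of *Kdr*, *Flt4*, *Tie1* and *Angpt2* was the same in all of these fits.

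**Figure D2:**
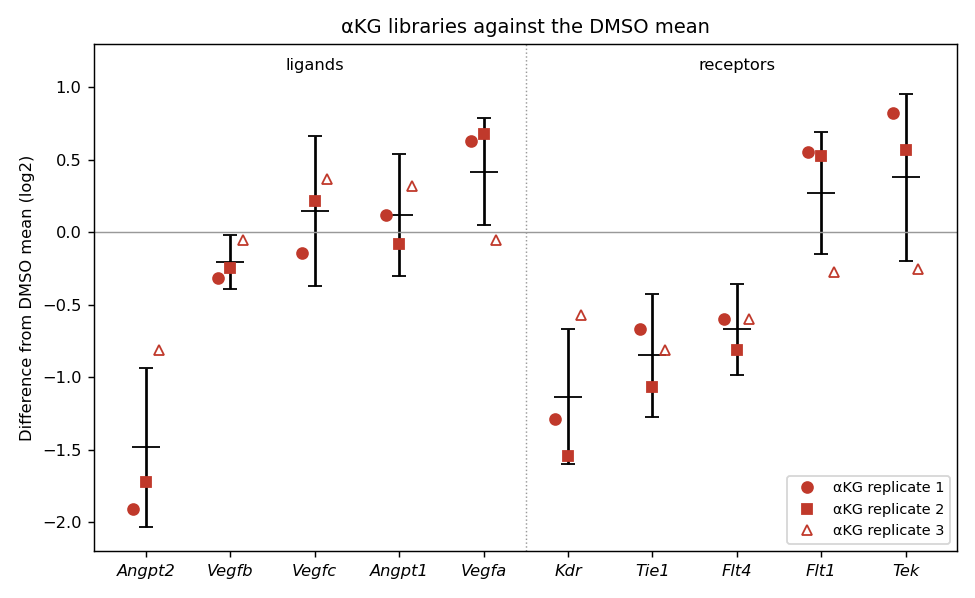
Difference of each αKG library from the DMSO mean on the log2(value + 1) scale (vertical axis) for the ligand and receptor genes (horizontal axis), with replicates 1 to 3 as points and the limma log2 fold change and its 95% interval as black bars. The open triangles of replicate 3 lie at -0.57 for *Kdr* and -0.82 for *Angpt2*, where replicates 1 and 2 lie between -1.91 and -1.29, and at -0.28 for *Flt1* and -0.25 for *Tek*, where replicates 1 and 2 lie between 0.53 and 0.83.

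Ligands were then set against receptors in each αKG library by the log2 difference from the DMSO mean, averaged over the 5 genes of each role. In αKG replicate 1 the ligands averaged -0.32 and the receptors -0.24, in replicate 2 -0.23 and -0.47, and in replicate 3 -0.05 and -0.50. The ligands thus stood above the receptors in replicates 2 and 3, by 0.24 and 0.45, and slightly below them in replicate 1, by -0.09, where single DMSO libraries set against the other DMSO libraries gave -0.06 to 0.06. Without *Angpt2*, which endothelial cells make, the ligands stood above the receptors in all 3 αKG libraries, by 0.31, 0.61 and 0.65. These averages are a description with no test, and they cover genes of opposite sign. In αKG replicates 1 and 2, 3 of 5 receptors were below the DMSO mean, and in replicate 3 it was 5 of 5, while 2 of 5 ligands were above it in each αKG library.

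Ratios of a pair of genes within a library do not depend on the scaling of that library. The ratio of *Vegfa* to *Kdr* was 2.14, 2.37 and 2.45 in DMSO and 8.82, 10.9 and 3.31 in αKG, that of *Flt1* to *Kdr* was 1.23, 1.40 and 1.35 in DMSO and 4.79, 5.62 and 1.62 in αKG. Both ratios were higher in every αKG library, replicate 3 included, on normalized counts that are not divided by gene length. The ratio of *Angpt2* to *Angpt1* was 6.32, 4.14 and 6.09 in DMSO and 1.31, 1.72 and 2.46 in αKG, and that of *Tie1* to *Tek* was 1.09, 1.35 and 1.55 in DMSO and 0.461, 0.417 and 0.889 in αKG. These 2 ratios were lower in every αKG library. The ratio of *Vegfa* to *Flt1* moved little, from 1.73, 1.69 and 1.82 to 1.84, 1.94 and 2.04, although without overlap, and that of *Angpt1* to *Tek* overlapped between the groups. For the 5 ratios without overlap the two-sided exact permutation test gave p = 0.1, the smallest that 3 libraries against 3 allow, and 0.12 after Benjamini-Hochberg adjustment over the 6 ratios computed, so none could pass 0.05. For *Angpt1* to *Tek* the exact permutation p was 0.5.

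**Figure D3:**
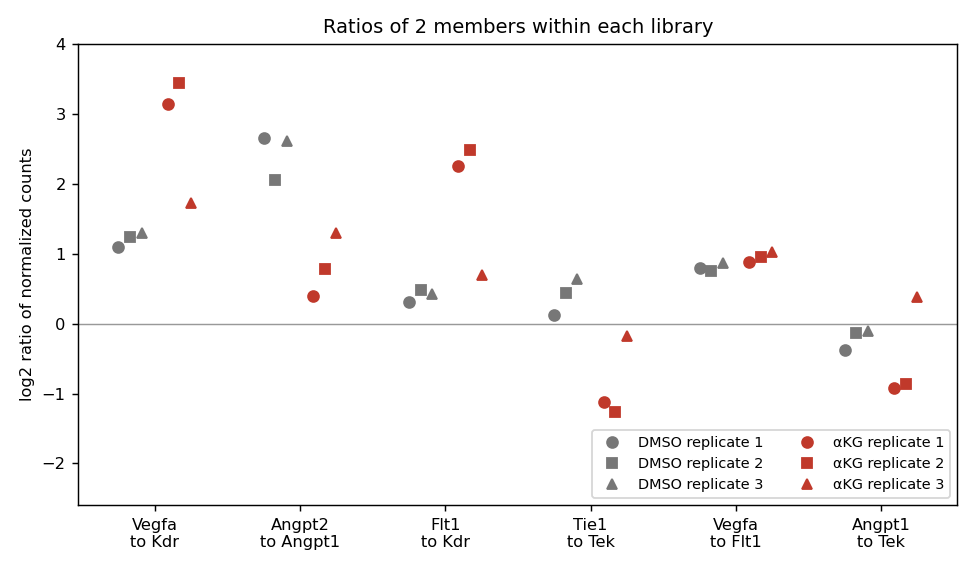
log2 ratio of the normalized counts of 2 genes within each library (vertical axis) for the 6 ratios computed (horizontal axis), with DMSO libraries in grey, αKG libraries in red, and circle, square and triangle for replicates 1, 2 and 3. αKG lies above DMSO for *Vegfa* to *Kdr* and *Flt1* to *Kdr* and below it for *Angpt2* to *Angpt1* and *Tie1* to *Tek*, with the triangle of αKG nearest to DMSO in each.

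Divided by exon length, which allows levels to be compared between genes, *Vegfb* had the highest level in DMSO (364 ± 3.43 normalized counts per kb, SD, n = 3), followed by *Vegfa* (203 ± 8.33) and *Angpt2* (82.6 ± 8.55). The receptors followed with *Kdr* (41.6 ± 1.68) and *Flt1* (36.9 ± 0.928), and the remaining genes lay between 10.8 and 17.4. In this order *Tie1* and *Flt4*, *Flt4* and *Tek*, *Tek* and *Vegfc*, and *Vegfc* and *Angpt1* overlapped between neighbours, and the neighbours above them did not. In αKG the mean level per kb was 46.0 ± 13.5 for *Flt1* and 19.7 ± 7.32 for *Kdr*, so their order was turned, and it was 18.8 ± 6.62 for *Tek*, 9.56 ± 1.33 for *Tie1* and 9.03 ± 0.771 for *Flt4*. *Vegfb* and *Vegfa* remained the highest in αKG, at 316 ± 30.8 and 279 ± 72.3, and overlapped each other. Lengths are the union of annotated exons, so the level of a gene that uses few of them is understated.

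The receptors were set beside other endothelial genes, in a list of 35 endothelial markers that holds none of the 10 genes and of which 34 were listed. In this list 14 genes were called lower and 0 higher, with a median log2 fold change of -0.90 against 0.04 for all genes (limma, 26 lower and 0 higher at an unadjusted p under 0.05). The fit that left out αKG replicate 3 called 25 lower and 3 higher (*Ptprb*, *Cd34* and *Aqp1*, named after their values were seen), and without any other single library 0 were called lower, with 19 to 23 lower at an unadjusted p under 0.05. *Pecam1* and *Cdh5*, adhesion proteins that define endothelial cells, had values of 339, 303 and 307 against 129, 134 and 184, and of 519, 442 and 518 against 222, 195 and 316. All αKG libraries lay below DMSO for both, with log2 fold changes of -1.10 and -1.04 (limma adjusted p = 0.00778 and 0.0181). *Emcn*, an endothelial sialomucin, and *Cd93*, an endothelial lectin-like receptor, were called lower too (-1.60 and -0.80, adjusted p = 0.0223 and 0.0343). *Ptprb*, which encodes the phosphatase VE-PTP that acts on TEK, did otherwise: its values were 448, 481 and 440 in DMSO against 760, 744 and 389 (log2 fold change 0.40, limma adjusted p = 0.248), high in αKG replicates 1 and 2 and lowest in replicate 3, as for *Flt1* and *Tek*.

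The summed value of the 34 markers was 4042 to 4222 in DMSO and 2964, 2808 and 2975 in αKG, which is 72.1, 68.3 and 72.3% of the DMSO mean. The sum includes abundant genes such as *Ptprb* that were high in replicates 1 and 2, and the median log2 difference of the markers was -0.97, -1.15 and -0.60 in αKG replicates 1 to 3, smaller in size in replicate 3. Relative to this sum, the difference of group means on the log2 scale was -0.64 for *Kdr*, -0.997 for *Angpt2* and -0.18 for *Flt4*, without overlap, and -0.37 for *Tie1*, with overlap. It was 0.77 for *Flt1*, 0.88 for *Tek* and 0.92 for *Vegfa*, and each of these was higher than DMSO in all 3 αKG libraries. The same held for *Vegfb*, *Vegfc* and *Angpt1*, at 0.29, 0.65 and 0.62. The sum itself was lower in each αKG library, and *Vegfb*, lower by its own values, was higher relative to it. The two-sided exact permutation p was 0.1 for the genes without overlap and 0.2 for *Tie1* (0.111 and 0.2 after adjustment over 10 genes). Relative to *Pecam1* and *Cdh5* alone, a choice made after the data were seen, *Kdr* differed by -0.08 with overlap (exact permutation p = 0.6), *Angpt2* by -0.43 without overlap (p = 0.1), and the signs of *Flt4* and *Tie1* turned, to 0.39 and 0.20. Relative to these 2 genes, the group means of *Flt1* and *Tek* were higher in αKG than in DMSO, by 1.33 and 1.45, without overlap. The same held for *Vegfa*, *Vegfb*, *Vegfc* and *Angpt1*, by 1.48, 0.86, 1.215 and 1.19.

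**Figure D4:**
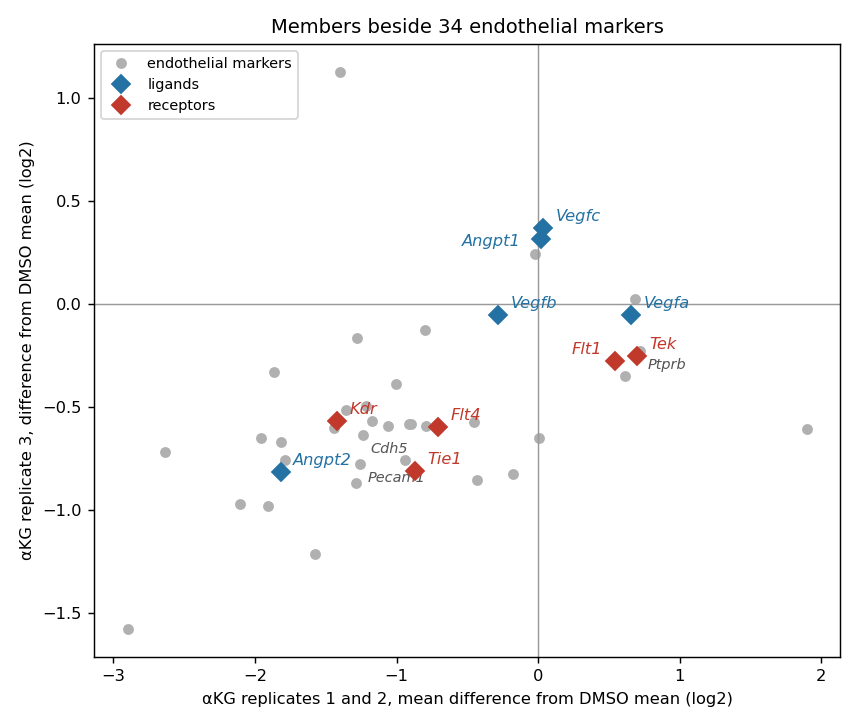
Mean log2 difference of αKG replicates 1 and 2 from the DMSO mean (horizontal axis) against that of αKG replicate 3 (vertical axis), with ligand genes in blue, receptor genes in red and 34 endothelial markers in grey. *Kdr*, *Flt4*, *Tie1* and *Angpt2* lie with *Pecam1*, *Cdh5* and most markers at the lower left, and *Flt1* and *Tek* lie beside *Ptprb* at the right, below 0 on the vertical axis.

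Markers of other cells had the following values, and their part in the results above was not tested. Cardiac fibroblast genes had summed values of 4691 to 4933 in DMSO and 10272, 9836 and 4788 in αKG replicates 1 to 3 (15 of 15 listed, 0 called in limma, 8 higher and 0 lower unadjusted). The fibroblast genes of highest mean were *Col1a1* (1018, 1006 and 951 against 2402, 2288 and 1042) and *Fbln2* (999, 987 and 929 against 1913, 1740 and 1013). Of the defining fibroblast genes, *Pdgfra* had 238, 297 and 248 against 410, 412 and 196. The other, *Tcf21*, had 56, 65 and 63 against 58, 62 and 39. Epicardial genes had summed values of 527 to 586 and 1320, 1288 and 532 (10 of 10 listed, 0 called, 3 higher and 0 lower unadjusted). Endocardial genes had 1053 to 1097 and 1780, 1741 and 939 (7 of 8 listed, 0 called, 3 higher and 1 lower unadjusted). Without αKG replicate 3, 11 fibroblast, 10 epicardial and 5 endocardial genes were called higher and 0, 0 and 1 lower. In all 3 lists the sums were high in αKG replicates 1 and 2 and near or below DMSO in replicate 3, the order also seen for *Vegfa*, *Flt1* and *Tek*. Mural cell genes had 6033 to 6155 and 7154, 6731 and 6628 (13 of 15 listed, 2 called higher and 0 lower, or 6 and 1 without αKG replicate 3). Of the defining mural genes, *Pdgfrb* had 228, 251 and 220 in DMSO against 347, 279 and 225 in αKG. The other, *Rgs5*, was at 1 to 6 in every library. The called mural genes were *Cspg4* (801, 846 and 777 against 1576, 1282 and 1021) and *Cnn1* (5, 10 and 12 against 119, 167 and 30). Of lymphatic markers, 6 of 7 were listed and 0 were called (0 higher and 1 lower unadjusted, and 2 higher and 1 lower called without αKG replicate 3). The genes of highest mean in the lymphatic list were *Prox1*, at 1025 to 1457 over the libraries, and *Thy1*, at 98 to 204, which is also in the fibroblast list. *Lyve1* was at 0 to 4. Whether lymphatic cells were the source of the *Prox1* and *Thy1* values was not tested. Macrophage markers were called in 0 of 5 cases, also unadjusted, and cardiomyocyte genes in 1 of 19, *Myh7*, a myosin chain, which was higher (1.88, limma adjusted p = 0.0146). Among cardiomyocyte genes 7 were called higher and 4 lower without αKG replicate 3, and 0 macrophage genes in either direction.

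Loci annotated as unconfirmed or as lying within introns moved with the same libraries, and their part in the results above was not tested. Unconfirmed single-exon loci (1532 genes of the type TEC) had median log2 differences from DMSO of 1.25, 1.14 and 0.24 in αKG replicates 1 to 3, and 219 sense-intronic loci had 1.20, 1.09 and 0.22. Across 8294 genes the difference rose with gene span, with Spearman correlations of 0.254, 0.216 and 0.137, given across genes, which are not independent. With exon length the correlations were 0.37, 0.278 and 0.156, and with GC content -0.104, -0.261 and -0.166. *Flt1* spans 164.4 kb and *Tek* 135.7 kb, whereas *Kdr* spans 45.6 kb, *Flt4* 43.5 kb and *Tie1* 18.9 kb. Exon length did not sort the receptors in this way, at 13504 bases for *Flt1*, 9030 for *Kdr*, 8232 for *Flt4*, 4917 for *Tie1* and 4712 for *Tek*. Of the ligands with long spans, *Angpt1* (252.3 kb) differed from the DMSO mean by 0.121, -0.078 and 0.317 in αKG replicates 1 to 3. *Vegfc* (109.5 kb) differed by -0.145, 0.218 and 0.37. The trends with GC content, exon length and span were then taken out together. After that, *Flt1* differed from the DMSO mean by 0.33, 0.36 and -0.32 in αKG replicates 1 to 3 and *Tek* by 0.73, 0.45 and -0.30. *Vegfa*, which spans 15.4 kb, differed by 0.61, 0.71 and -0.08. *Kdr* differed by -1.39, -1.58 and -0.62, so the signs of *Flt1*, *Tek*, *Vegfa* and *Kdr* were unchanged in each library. *Vegfb* differed by -0.11, -0.06 and 0.01, and its sign turned in αKG replicate 3. Its log2 fold change in that fit was -0.05 (limma adjusted p = 0.676). *Angpt1* differed by -0.31, -0.58 and 0.17, and its sign turned in αKG replicate 1. With GC content and exon length, or these and span, taken out in the fit, *Kdr*, *Flt4*, *Tie1* and *Angpt2* were called lower as before.

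Genes of the same pathway were counted from lists. Among relatives of the VEGF system (co-receptors, semaphorins, processing factors), 12 of 13 were listed, 1 was called higher and 1 lower, with a median log2 fold change of 0.51, and 8 higher and 1 lower without αKG replicate 3. The one that rose was *Sema3c*, a secreted guidance cue (424, 427 and 351 against 643, 679 and 526, 0.62, limma adjusted p = 0.0311), and the one that fell was *Plxnd1*, an endothelial semaphorin receptor (343, 291 and 296 against 178, 175 and 247, -0.64, limma adjusted p = 0.0445). *Nrp1*, the co-receptor of KDR, was high in all libraries, at 1719 to 1769 against 1852 to 1940, without overlap but without a call (0.12, adjusted p = 0.167). *Vegfd*, a second ligand of FLT4 that was picked after its values were seen, had 47, 35 and 47 in DMSO and 184, 192 and 45 in αKG, so it was above DMSO in αKG replicates 1 and 2 and not in replicate 3.

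Of relatives and modulators of the angiopoietins 13 of 14 were listed, 1 was called higher and 1 lower, with a median of 0.40, and 6 higher and 1 lower without αKG replicate 3. *Itga5*, an integrin chain that binds fibronectin, was higher (724, 687 and 664 against 1071, 951 and 942, log2 fold change 0.51, limma adjusted p = 0.0136), and *Grb14*, an adaptor that can bind activated TEK, was lower (1018, 1050 and 1118 against 701, 741 and 895, -0.45, limma adjusted p = 0.0379). For both genes the groups did not overlap. *Itgb1* and *Itgav*, which had the highest means of the list, overlapped between the groups.

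Proteins that carry the VEGF receptor signal inside the cell (phospholipase C, kinases, adaptors) were listed for 33 of 34, and 0 were called by limma (1 higher and 11 lower at an unadjusted p under 0.05), with a median log2 fold change of -0.13. With αKG replicate 3 left out, 1 was called higher and 15 lower. Most of them are made by many cell types. *Akt1*, the kinase downstream of PI3K, had 1065, 1021 and 1050 in DMSO and 810, 768 and 971 in αKG, and its groups did not overlap, but it was not called (-0.31, adjusted p = 0.076). *Pik3r1*, the regulatory chain of that kinase complex, overlapped (-0.10, adjusted p = 0.34).

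Genes of a list of the endothelial VEGF response, not all of them induced by VEGF, were all listed (21 of 21). Of these, 3 were called lower and 0 higher (7 lower and 2 higher unadjusted), with a median of -0.33. Without αKG replicate 3, 7 were called lower and 3 higher, and without any other single library 0 were called lower, with 5 or 6 lower at an unadjusted p under 0.05. *Esm1*, a secreted proteoglycan of tip cells, had 120, 139 and 145 in DMSO against 19, 22 and 70 (log2 fold change -2.08, limma adjusted p = 0.0347). *Apln*, a tip cell peptide, had 312, 278 and 293 against 105, 134 and 182 (-1.10, limma adjusted p = 0.0204). *Dusp5*, a phosphatase of ERK, had 205, 197 and 218 against 119, 121 and 159 (-0.64, limma adjusted p = 0.0402). In all 3 genes αKG replicate 3 was the highest αKG library and still below DMSO, as for *Kdr* and *Angpt2*. *Rcan1*, a calcineurin inhibitor that is also made in cardiomyocytes, was higher in each αKG library without a call (443, 458 and 455 against 638, 717 and 504, 0.44, adjusted p = 0.0641), and *Foxo1* was lower without a call (-0.26, adjusted p = 0.146).

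*Vegfa* is a target of hypoxia-inducible factors, whose prolyl hydroxylases use αKG. Of 25 other targets 24 were listed and 0 were called by limma (8 higher and 1 lower at an unadjusted p under 0.05), with a median of 0.37. Once αKG replicate 3 was left out, 15 were called higher and 2 lower, with a median of 0.65. Their median differences from the DMSO mean were 0.54, 0.62 and -0.08 in αKG replicates 1 to 3, beside 0.63, 0.68 and -0.06 for *Vegfa* and 0.05, 0.04 and 0 for all genes. The fibroblast, epicardial and endocardial genes above were likewise high in αKG replicates 1 and 2 and not in replicate 3. A link of *Vegfa* to any of these lists was not tested. *Hk2* and *Hk1*, hexokinases and the targets of highest mean, had log2 fold changes of 0.17 and -0.32 (adjusted p = 0.282 and 0.0683), and thus opposite signs.

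The genes with the most similar pattern were sought among 8295 genes with a mean of at least 100, by the root mean square difference over the 6 libraries of log2 values centred on each gene's own mean. *Mest*, *Podxl* and *Nav3* were nearest to *Kdr* (0.056, 0.080 and 0.092), and *Mmrn2*, *Nav3* and *Podxl* to *Angpt2* (0.183, 0.213 and 0.214). *Mmrn2* and *Podxl* are among the endothelial markers above, and *Mest* and *Nav3* are not. *Ikbip*, *Limch1* and *Srxn1* were nearest to *Flt1* (0.019, 0.032 and 0.044), *Atp9a*, *Pnpla6* and *Pcdhgb6* to *Tek* (0.030, 0.071 and 0.082), and *Aopep*, *Fndc3a* and *Cald1* to *Vegfa* (0.024, 0.037 and 0.040), and none of these is in the endothelial list. *Abcg1*, *Klhl38* and *Cnst* were nearest to *Flt4* (0.050, 0.079 and 0.087) and *Zfp30*, *Abcg1* and *Klc4* to *Tie1* (0.147, 0.173 and 0.174). These neighbours of *Flt4* and *Tie1* are not in the endothelial list either. *Tle5* was nearest to *Vegfb* (0.015), *Gcnt1* to *Vegfc* (0.041) and *Cuedc1* to *Angpt1* (0.080). Among the 10 genes themselves the closest pairs were *Flt1* and *Vegfa* (0.091), *Tek* and *Flt1* (0.124), *Tek* and *Vegfa* (0.163), *Tie1* and *Flt4* (0.186), and, of those with *Kdr*, *Angpt2* and *Kdr* (0.234), while *Flt1* and *Kdr* lay 0.90 apart. Likeness over 6 libraries is a description only.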

How the data were processed

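Total RNA libraries were made with a stranded kit, and whether strand was used in counting is not given in the sources used here. Per the submitters' processing notes the authors used FastQC 0.11.8, Trimmomatic 0.39, STAR 2.7.10a, Picard 2.27.1, featureCounts 2.0.3 and DESeq2 1.30.1 on mm10 (GRCm38.p5), and reads that met more than 1 gene or genomic place were dropped. The deposited values are treated as a score, since size-factor scaling by the authors, followed by rounding, left whole numbers that are no raw counts. Count models were therefore not run.

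All 6 libraries entered limma 3.58.1 (R 4.3.3) on log2(value + 1), which understates changes of low genes, with no filter, the variance allowed to follow the mean, treatment as the only term, and Benjamini-Hochberg adjustment over 20066 genes. Scripts were tested on simulated data. Reads per library were estimated from the spacing of values (Python 3.11.15), and such depths cover counting error only. Exon lengths came from GENCODE M21, which gave 99.0% of genes the same position, and promoters from RefSeq. Named genes were the 10 genes, genes overlapping them, from each list up to 3 called genes of smallest p and the 2 of highest mean, and the 3 nearest genes in pattern, of which some are left out of the text. *Tnnt2*, *Myh6*, *Pdgfra*, *Tcf21*, *Pdgfrb* and *Rgs5* were named outside this rule as defining markers. *Lyve1*, *Cd34*, *Aqp1* and *Vegfd* were also named outside it, after their values were seen. The members and lists were chosen with earlier results of these data known. Alternatives covered pseudocount, filter, scaling, trend, replicate block, GC and length, voom and each library left out. The αKG concentration follows the labels, and the study's methods give another.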

Additional observations from a re-analysis of the deposited data

How the results depend on the processing

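*Kdr*, *Flt4*, *Tie1* and *Angpt2* kept their direction in all 18 alternatives of the fit, and their calls were lost in 8, 9, 10 and 8 of them. Of the 10 genes, limma called 0 without the mean trend (4 at an unadjusted p under 0.05), 0 with the replicate block (5 unadjusted), 0 with DMSO replicates 2 and 3 averaged into 1 sample (4 unadjusted) and 2 in limma-voom on estimated reads (6 unadjusted), all lower. In the same order, 4160, 5160, 3518 and 5272 of all 20066 genes had an unadjusted p under 0.05 in these fits. Leaving out 1 library gave 0 to 8 called genes, 0 to 5 lower and 0 to 3 higher, and the highest counts were those without αKG replicate 3. At an unadjusted p, 6 were called, 1 of them higher.

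Of all 20066 genes, 759 were called, and the count was 346 with a pseudocount of 0.1, 27 without the trend, 46 with the replicate block, 1245 with GC and length correction, 1837 with that correction and the replicate block, 362 in limma-voom, 19 with the DMSO libraries averaged, 5648 unadjusted, and 0 to 7466 with 1 library left out (0 without αKG replicate 1 or 2, with 3324 and 3244 unadjusted). Endothelial markers called lower numbered 6 with a pseudocount of 0.1, 9 in limma-voom, 26 unadjusted, 0 without the trend, with the replicate block and with the DMSO libraries averaged (26, 26 and 23 unadjusted), and 0 to 25 with 1 library left out, against 14. The deviations of same-numbered libraries from their group means correlated at -0.07, 0.14 and 0.00. Differently numbered libraries were not compared in this way, so these values cannot decide whether the numbers pair the samples.

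The mean ligand minus receptor difference of 0.20 was 0.52 without *Angpt2*, 0.57 by medians, 0.14 with quantile normalization, 0.15 with GC and length correction, and 0.07 to 0.34 with 1 library left out, lowest without αKG replicate 3 and highest without αKG replicate 1. *Vegfc* turned to -0.18 with quantile normalization. *Angpt1* turned to -0.039 with the same normalization, to -0.20 with GC and length correction with or without the replicate block, and to -0.24 with gene span added. *Flt4* and *Tie1*, lower relative to all endothelial markers, turned to 0.39 and 0.20 relative to *Pecam1* and *Cdh5*. The span correction and the choice of *Pecam1* and *Cdh5* were added after the data were seen. The cause of these changes was not tested, except that fits with a library left out or averaged hold fewer samples. Depth limits *Vegfc*, *Angpt1*, *Tie1* and *Tek* most, with values of 27 to 115.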
